A study of Mus musculus with 16 samples.

Results

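A set of 10 genes of the interferon-gamma (IFN-γ) response was followed through sorted mouse brain myeloid cells, namely the guanylate-binding protein genes Gbp2, Gbp3, Gbp5 and Gbp7, the immunity-related GTPase genes Irgm1, Igtp and Iigp1, the transcription factor gene Irf1, and the receptor chain genes Ifngr1 and Ifngr2. They were taken by name as genes of this pathway, with earlier results of these data known, and all 10 were found among the 18580 genes listed in the deposited tables. IFN-γ, made mainly by NK and T cells, binds a receptor of IFNGR1 and IFNGR2 chains, and JAK kinases then start a signal that reaches GAS elements in DNA. Irf1 is an early target whose product binds ISRE elements, and GBP and IRG GTPases are later targets that act on the membranes of vacuoles holding intracellular pathogens. Irgm1 encodes a regulatory IRG protein, Igtp (also called Irgm3) another one, and Iigp1 (Irga6) an effector that is loaded onto vacuoles. Microglia and macrophages express both receptor chains and respond to IFN-γ in inflamed brain.

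The libraries came from wild-type (WT) C57BL/6N mice and CD163KO littermates (allele CD163tm1.1(KOMP)Vlcg), a whole-body deletion of the haemoglobin scavenger receptor that marks border-associated macrophages. Mice of both sexes, 12 weeks old at surgery, received α-synuclein into the striatum on both sides, either monomeric (MONO) or as pre-formed fibrils (PFF), and brains were taken 2 months later. Microglia (CD11b+, CD45 low to intermediate; 200000 to 500000 cells) and macrophages (CD11b+, CD45 high; 10000 to 30000 cells) were sorted and sequenced with Smart-seq2, and by the study's own methods the second gate also takes infiltrated macrophages, neutrophils and NK cells. There was no uninjected group here, so every library carries the surgery and α-synuclein. With 1 library for every combination (16 in all), no combination has replicates. Between the populations, the pairs of libraries of the same sex, genotype and treatment stand in for replicates. In the other tests, p-values rest on the spread between single libraries that the fitted model of these factors leaves over. The study's methods speak of mice in more than one batch, of triplicates for sequencing and of outlier samples removed, and how the single tables relate to these is not given in the sources used here. A library may therefore stand for an animal, a technical replicate or a pool, and batch and group cannot be told apart.

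The totals were 8648751 to 21433841 estimated counts per library. Libraries of 2 combinations stood apart in both populations, male WT PFF and male CD163KO MONO. The 10 most abundant genes took 16.5% and 16.6% of the counts in these macrophage libraries but 39.7% to 64.0% in the other 6, whereas in microglia they took 58.7% and 47.7% there but 13.5% to 16.4% elsewhere. The study left out male CD163KO MONO, and the tests below do so too, while results without male WT PFF are given beside those that change. Cd163, the deleted gene, had 0 to 1 counts in CD163KO macrophages and 748 to 5275 in WT macrophages, a log2 fold change of -11.34 (SE 0.82, edgeR adjusted p = 0.0162). In male microglia it did not follow the label, with 0 and 1 counts in WT and 10 and 5 in CD163KO libraries, and in female microglia it had 46 and 101 counts in WT and 23 and 11 in CD163KO libraries. Between genotypes in microglia Cd163 did not pass (-0.98, SE 1.98, edgeR adjusted p = 1.0), so the deletion was not shown by its own gene there, on few counts. Over 4 Y-linked genes, 7 of the 8 libraries labelled female had 0 to 2 counts, but the microglial one of CD163KO MONO mice had 799, so its content went against its label. Defining microglial genes (P2ry12, Tmem119, Cx3cr1 and 7 others) summed to 5656 to 26611 scaled FPKM (FPKM divided by a composition factor, explained below) in microglia and 751 to 1347 in macrophages. In macrophages, 10 genes of border-associated macrophages, such as Mrc1 and Pf4, summed to 2933 to 5797, below 11 neutrophil genes, such as S100a8 and S100a9, at 48386 to 278126.

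Promoter sequence was available for 9 of the 10 genes, all except Iigp1, in RefSeq on GRCm38.p6, as windows from 250 bases before to 50 after each annotated start. These were searched on both strands for GAS (TTCNNNGAA, which reads the same on both strands) and ISRE (GAAA, any 2 bases, GAAA, which reads TTTC, any 2 bases, TTTC on the other strand), elements known from promoters of interferon-induced genes. GAS letters were found for 4 of the 9 genes and ISRE letters for 6, with 7 holding at least 1 of these and 3, Gbp5, Gbp7 and Igtp, holding both. Over all 27025 genes with a window of this length the shares were 9.55% for GAS, 3.99% for ISRE, 0.54% for both and 12.9% for at least 1 of them. The stretches are shown for the induced genes that hold them, and neither the Ifngr1 nor the Ifngr2 window held either run of letters. Capitals mark the matched letters, and each line reads 5′ to 3′ on the strand of the gene. A match is a run of letters and not a bound site.

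The Gbp2 stretch lies at chr3:142620592-142620625 (plus strand), the Gbp3 stretch at chr3:142559987-142560026 (plus strand, 2 overlapping ISRE matches), and the Gbp7 stretch at chr3:142530218-142530304 (plus strand, 2 GAS and 1 ISRE). For Gbp5 the first line is the ISRE at chr3:142496757-142496790 and the second the nearer GAS at chr3:142496870-142496902, both on the plus strand. Igtp is at chr11:58199499-58199543 (plus strand, GAS then ISRE), Irf1 at chr11:53769912-53769944 (plus strand, GAS) and Irgm1 at chr11:48871423-48871462 (minus strand, 2 overlapping ISRE matches).
Gbp2: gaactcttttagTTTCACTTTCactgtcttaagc
Gbp3: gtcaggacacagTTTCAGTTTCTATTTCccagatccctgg
Gbp5: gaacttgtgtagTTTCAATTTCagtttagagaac
Gbp5: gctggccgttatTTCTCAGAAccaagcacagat
Gbp7: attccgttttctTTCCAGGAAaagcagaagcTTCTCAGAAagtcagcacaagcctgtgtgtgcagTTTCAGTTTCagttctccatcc
Igtp: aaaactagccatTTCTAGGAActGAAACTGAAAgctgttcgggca
Irf1: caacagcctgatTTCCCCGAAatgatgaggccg
Irgm1: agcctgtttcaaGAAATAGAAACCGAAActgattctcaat
In these windows Igtp carried its GAS and ISRE letters 2 bases apart, and Gbp2, Gbp3, Gbp7, Igtp and Irgm1 each had ISRE letters within 59 bases of the start. The 4 Gbp genes lie in the same stretch of chromosome 3, between 142496934 and 142638008.

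Levels were read on 2 scales, FPKM as deposited and scaled FPKM, which is FPKM divided by the TMM factor of the library (the trimmed mean of M-values, an estimate of how composition distorts the total). The receptor chains led both populations. Ifngr1, the ligand-binding chain, had FPKM as deposited of 189, 240 and 411 (lowest, median and highest of 8) in macrophages and 455, 628 and 699 in microglia. Ifngr2, the signalling chain, had 19.5, 36.7 and 64.6 in macrophages and 44.5, 98.8 and 120 in microglia. Ifngr1 was above Ifngr2 in all 16 libraries without overlap. By median FPKM the order below them was Igtp, Irgm1 and Irf1 in both populations, followed by Gbp2, Gbp7, Gbp3, Iigp1 and Gbp5 in macrophages and by Gbp7, Gbp3, Gbp2, Iigp1 and Gbp5 in microglia. Apart from the step from Ifngr1 to Ifngr2, each pair of neighbours in these orders overlapped.

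Igtp had 16, 32.1 and 61.4 FPKM as deposited in macrophages and 12.9, 48.7 and 72.5 in microglia. Irgm1 had 12.5, 26.7 and 46.9 in macrophages and 8.37, 33.7 and 48.5 in microglia. Irf1 had 7.14, 17.7 and 33.5 in macrophages and 5.70, 20.6 and 36.9 in microglia. On this scale the populations therefore overlapped for all of these induced genes, and the lowest microglial value of Igtp and of Irgm1 came from male WT PFF. Some estimated counts, summed over the transcripts of a gene, were not whole (by more than 0.03), so the reads may be split with another gene. This held in 15 of 16 libraries for Igtp, 8 for Irgm1, 4 each for Gbp3 and Gbp7 and 1 for Iigp1, and in none for Irf1, Gbp2, Gbp5, Ifngr1 and Ifngr2.

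Among the GBP genes, Gbp7 had 2.33, 8 and 24.8 FPKM in macrophages and 3.14, 10.7 and 15.6 in microglia. Gbp3 had 2.39, 5.25 and 43.3 in macrophages and 0.92, 7.84 and 11.4 in microglia. The 2 highest Gbp3 values in macrophages, 41.6 and 43.3, were those of the libraries that stood apart, and the other 6 did not pass 11.2. Gbp5, whose product promotes inflammasome assembly, was high in 1 library. It reached 34.5 FPKM (1889 estimated counts) in male WT PFF macrophages and 2.01 FPKM (96 counts) in female WT PFF microglia, and was at or below 0.39 FPKM in the other 14. Of these, 4 were at 0 counts, which allows up to 3 counts per library.

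**Figure D1:**
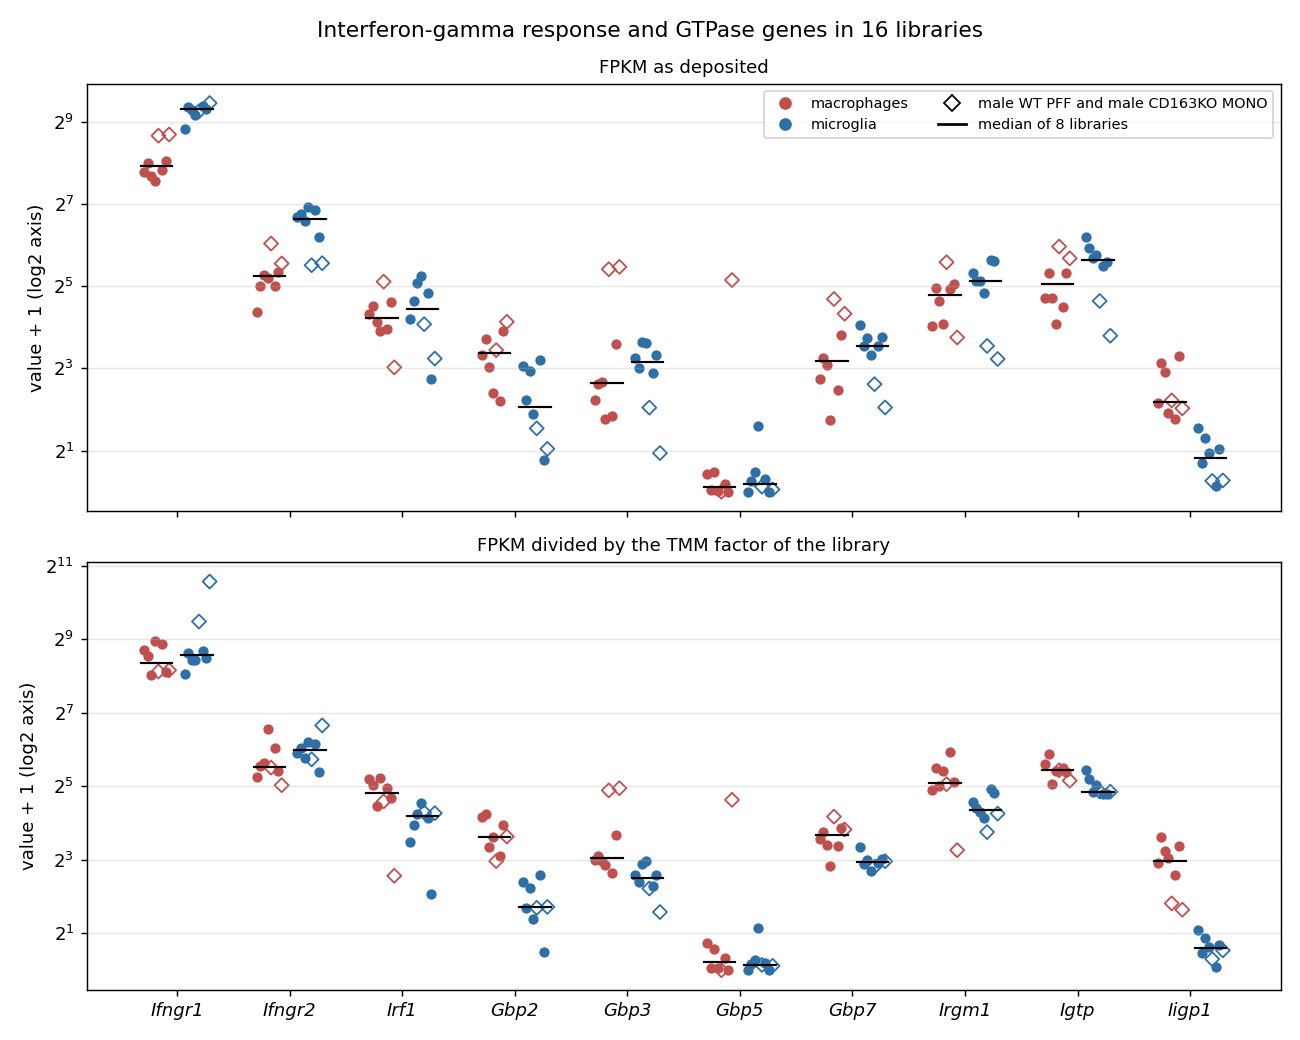
Level of each of the 10 genes in the 16 libraries, as value + 1 on a log2 axis, with FPKM as deposited above and FPKM divided by the TMM factor below; points are libraries, open diamonds are male WT PFF and male CD163KO MONO, and bars are medians of 8. Iigp1 was lower in microglia on both scales, with medians of 3.55 and 0.78 FPKM as deposited, while Gbp2 separated only after scaling and Ifngr1 only before it.

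The first comparison asked whether microglia and macrophages differed in these genes, pairing libraries of the same sex, genotype and treatment. Whether the libraries of a pair came from the same mice is not given in the sources used here, and in the female CD163KO MONO pair the Y-linked counts were 0 and 799. Iigp1, Gbp2, Gbp7 and Igtp were lower in microglia after TMM scaling, and no member was higher. In an edgeR fit over 7 pairs of libraries, blocked by combination, 4 of the 10 members passed an adjusted p of 0.05, all lower, where 20.0% of 12823 genes passed in either direction and 12.6% passed as lower. The median log2 fold change of the 10 was -1.10, against 0.32 for all genes tested. Without male WT PFF, 7 of 10 passed, with Gbp3, Irgm1 and Irf1 added, where 38.6% of all genes passed. Gbp3 also passed with all libraries and in DESeq2, which made 5 of 10, where 17.8% and 37.0% of all genes passed. With scaling to the library total only, the median of all genes was 1.94 and directions changed, so that Iigp1 still passed as lower, Ifngr1 and Ifngr2 passed as higher, and Gbp3, Gbp7, Irgm1, Igtp and Irf1 had positive values that did not pass. Under that scaling 49.1% of all genes passed, and 44.5% passed as higher, against 2 of the 10 members.

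Iigp1 had 2.43, 3.55 and 8.90 FPKM as deposited in macrophages and 0.10, 0.78 and 1.93 in microglia. Every macrophage library lay above every microglial one on both scales. The fitted log2 fold change was -4.14 (SE 0.68, 95% interval -5.64 to -2.63, adjusted p = 0.00133), which is a level 17.6-fold lower in microglia. It was -4.41 without male WT PFF and -2.80 with scaling to the library total (adjusted p = 2.86e-05 and 0.0123). Iigp1 counts in microglia were low, 5 to 98 per library, so single microglial values are imprecise.

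Gbp2 had 3.65, 9.42 and 16.5 FPKM as deposited in macrophages and 0.72, 3.17 and 8.22 in microglia. As deposited, Gbp2 was lower in microglia in 7 of 8 pairs, the exception being male CD163KO PFF, and after scaling in 8 of 8 without overlap. Its log2 fold change was -2.73 (SE 0.57, 95% interval -3.98 to -1.49, adjusted p = 0.00559), or 6.64-fold lower. With scaling to the library total it was -1.30 and did not pass (adjusted p = 0.2). Over all genes with a value of at least 1, 11.3% did not overlap between the 8 and 8 libraries after scaling and 6.47% as deposited, while of the 10 members 2 did not overlap after scaling (Gbp2 and Iigp1, both lower in microglia) and 2 as deposited (Iigp1, lower, and Ifngr1, higher).

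Gbp7 and Igtp showed smaller differences that passed only after scaling. Scaled FPKM of Igtp was 32.4, 42.2 and 57.5 in macrophages and 26.7, 28 and 42.3 in microglia, lower in microglia in 8 of 8 pairs. The log2 fold change of Igtp was -0.79 (SE 0.21, adjusted p = 0.02), and that of Gbp7 was -0.95 (SE 0.23, adjusted p = 0.0128). With scaling to the library total they were 0.67 and 0.54, and as deposited 6 of 8 pairs for Igtp and 5 of 8 for Gbp7 were higher in microglia. Leaving out a pair moved Igtp above the threshold in 4 of 7 fits and left Gbp7 under it in all 7. Neither passed without the filter on low counts or in limma.

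Gbp3, Irgm1 and Irf1 had negative values that did not pass over 7 pairs. They were -1.27 (SE 0.48, adjusted p = 0.0880) for Gbp3, -0.93 (SE 0.33, adjusted p = 0.0737) for Irgm1 and -1.25 (SE 0.53, adjusted p = 0.123) for Irf1. In male WT PFF the Irgm1 and Irf1 pairs ran the other way on the scaled values, with 8.61 against 18.1 for Irgm1 and 4.93 against 18.3 for Irf1 in macrophages and microglia. Gbp5 was -1.79 with an SE of 1.87, and -0.71 without male WT PFF. For the receptor chains the fit gave -0.13 for Ifngr1 (95% interval -0.99 to 0.74) and 0.02 for Ifngr2 (-0.60 to 0.65), while with scaling to the library total they were 1.32 and 1.44 (adjusted p = 0.00289 and 0.0210). The call of both receptor genes, and the sign of Ifngr1, thus depended on the scaling.

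**Figure D2:**
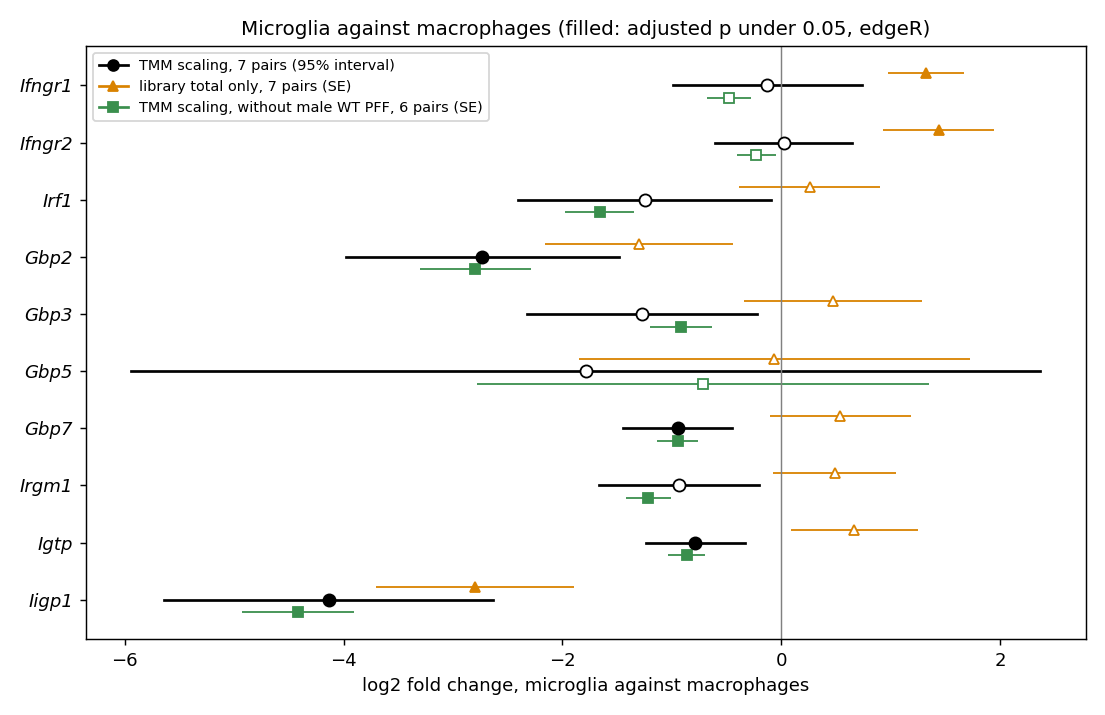
Fitted log2 fold change of microglia against macrophages for each gene in 3 edgeR fits; black circles with 95% intervals use TMM scaling over 7 pairs, orange triangles scale to the library total, green squares leave out male WT PFF (thin bars are the SE), and filled symbols passed an adjusted p of 0.05. Iigp1 lay between -4.41 and -2.80 in the 3 fits, whereas Ifngr1 and Ifngr2 passed only under the library total.

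Ratios of 2 genes within 1 library need no scaling between libraries. The ratio of Iigp1 to Igtp FPKM, an effector against a regulator, was 0.0596, 0.155 and 0.261 in macrophages and 0.00228, 0.0169 and 0.0295 in microglia. The 8 and 8 ratios did not overlap, and the lowest macrophage ratios were those of male CD163KO MONO and male WT PFF. The ratio of Gbp2 to Gbp7 was 0.400, 1.02 and 1.85 in macrophages and 0.0567, 0.357 and 0.769 in microglia, overlapping through the male CD163KO MONO macrophage library. The ratio of Ifngr1 to Ifngr2 was 5.30, 6.90 and 11.2 in macrophages and 4.46, 6.31 and 15.2 in microglia, so the ranges of the receptor chain ratio overlapped. Its highest microglial values, 15.2 and 13.7, were again from the 2 combinations that stood apart. These ratios were chosen after the levels were seen and were not tested.

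**Figure D3:**
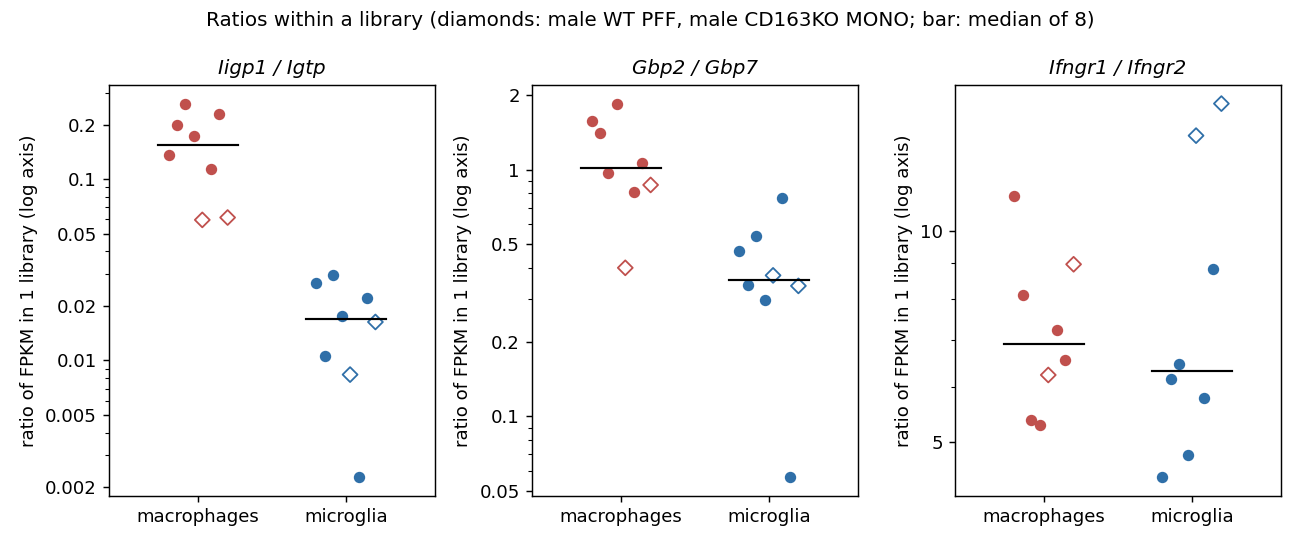
Ratio of FPKM of 2 genes within each library, on a log axis, by population; points are libraries, open diamonds are male WT PFF and male CD163KO MONO, and bars are medians of 8. The Iigp1 to Igtp ratio was 0.0596 or more in macrophages and 0.0295 or less in microglia, while the Ifngr1 to Ifngr2 ranges overlapped.

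Other genes of the pathway were read from lists of known interferon genes. Ifng itself was at 0 counts in all 8 microglial libraries and at 0 to 62 counts in macrophages, 2 of which, male CD163KO PFF and male WT PFF, were also at 0. Of 10 signalling genes 2 were higher in microglia, Irf8 (1.03, SE 0.19, adjusted p = 0.00249), a lineage factor of microglia, and Socs3 (1.16, SE 0.26, adjusted p = 0.00834), a feedback inhibitor of cytokine signalling, and none passed as lower, where 7.4% of all genes passed as higher and 12.6% as lower. With scaling to the library total 4 of the 10 were higher and 1 lower, where 44.5% of all genes passed as higher, and without male WT PFF 2 were higher and 1 lower, where 38.6% of all genes passed in either direction.

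Of 4 other Gbp genes tested, Gbp6 was lower in microglia (-2.95, SE 0.85, adjusted p = 0.0313) and the other 3 did not pass. Without male WT PFF, in DESeq2 and in limma 3 of the 4 passed as lower, and 2 did without the block for the combination. Of all genes 38.6%, 37.0%, 38.6% and 26.6% passed in these settings in either direction. None of the 4 passed as lower with all libraries, with scaling to the library total (where 1 passed as higher), without the count filter, or in 5 of the 7 fits that left out a pair, namely all but those without female WT PFF and without male WT PFF. Of 9 other IRG genes, Tgtp2 (-5.96, SE 0.29, adjusted p = 7.65e-07), which is nearly identical to Tgtp1 so that their reads may be split, and Gm4951 (-3.13, SE 0.26, adjusted p = 1.38e-05) were lower, and F830016B08Rik was higher (2.10, SE 0.48, adjusted p = 0.00927). The lists had medians of -2.68 and 0.24. Without male WT PFF 2 of the 9 IRG genes passed as higher and 4 as lower (median -0.28), where 38.6% of all genes passed in either direction. DESeq2 also gave 2 higher and 4 lower and limma 3 and 3, where 37.0% and 38.6% of all genes passed. Under the library total 4 of these 9 IRG genes passed as higher, where 44.5% of all genes did, and 1 as lower (median 2.01), and Gm4951 no longer passed (-1.59, adjusted p = 0.0522).

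Of 25 other IFN-γ targets tested, 15 were lower in microglia and none higher, with a median of -2.08, where 12.6% of all genes passed as lower. The lowest were H2-Ab1, Serpina3g and Cd74 at -9.44 (SE 1.22), -9.12 (SE 1.45) and -8.74 (SE 1.28), where H2-Ab1 and Cd74 encode an MHC class II chain and the invariant chain. Of 16 type I interferon genes, 12 were lower and none higher (median -3.58), with Ifi27l2a, Oas2 and Cmpk2 the lowest of those at -4.91 (SE 0.31), -4.71 (SE 1.17) and -4.55 (SE 0.93). With scaling to the library total these lists had 11 and 7 genes lower and 5 and 0 higher, with medians of -0.67 and -2.09 against 1.94 for all genes, and 598 of 12823 genes passed as lower and 44.5% as higher. Without male WT PFF they had 18 and 16 lower and 1 and 0 higher, where 2649 of 12759 genes passed as lower. All adjusted p-values are from edgeR with Benjamini-Hochberg adjustment over all genes tested.

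Markers of other cells differed between the populations beside these genes. The 13 detected genes of NK and T cells, which are known to make IFN-γ, summed to 114 to 227 scaled FPKM in macrophages and 0.206 to 3.31 in microglia, with 7 of 11 tested lower in microglia, where 12.6% of all genes passed as lower. Neutrophil genes summed to 713 to 3184 in microglia against 48386 or more in macrophages, and the 7 monocyte genes to 12.7 to 47.6 against 785 to 2387. Of the 11 neutrophil genes 10 passed as lower in microglia and 1 as higher. In bulk sorted cells, fewer cells of a type and less RNA per cell cannot be told apart, and the part of these cells in the differences of the 10 genes was not tested.

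**Figure D4:**
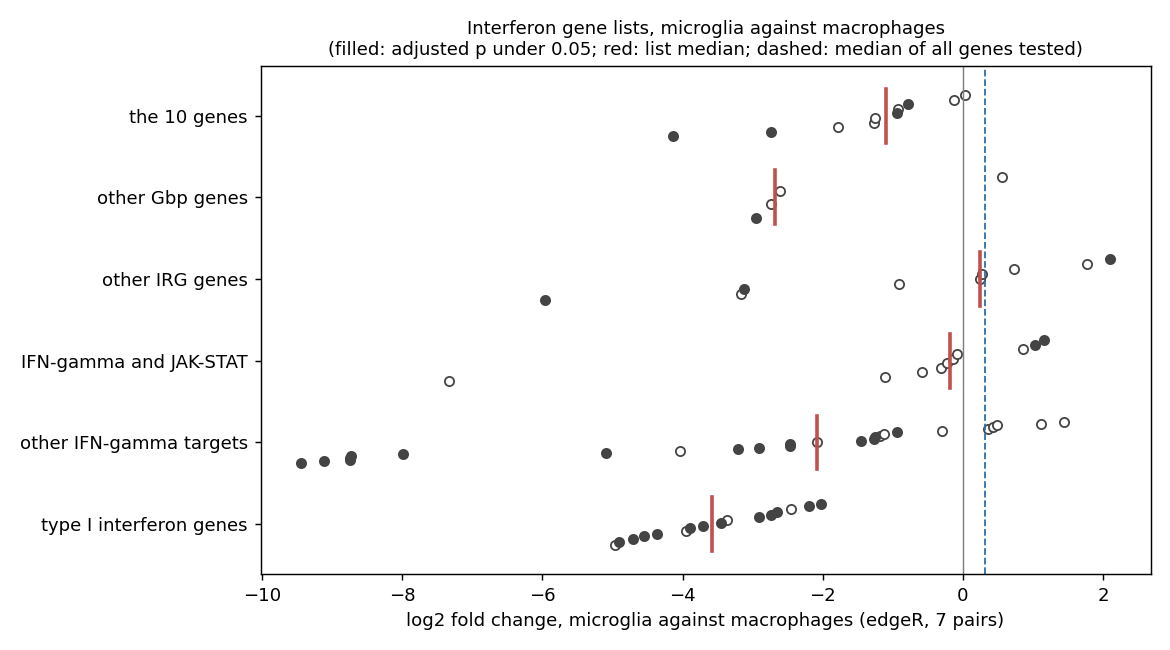
Fitted log2 fold change of each tested gene, microglia against macrophages (edgeR, 7 pairs, TMM scaling), by list; points are genes, filled where adjusted p was under 0.05, red bars are list medians and the dashed line is the median of all genes, 0.32. The medians of the 10 genes, the other IFN-γ targets and the type I interferon genes were -1.10, -2.08 and -3.58.

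The second comparison asked what α-synuclein PFF did relative to MONO in each population. In macrophages none of the 10 genes passed in an additive edgeR fit of sex, genotype and treatment over 7 libraries, and 0.0% of 11070 genes did. In that fit 125 genes, none of them a member, were under an unadjusted p of 0.05, and DESeq2 called 5 genes. Without any effect a share of 0.05 of the genes would be under that p by chance, and 125 of 11070 is less. The lack of calls in this fit therefore does not show a lack of effect. The largest positive value was that of Ifngr2 at 0.61 (SE 0.45, adjusted p = 1), and without a single library it lay between -0.085 and 0.87. Single pairs of libraries differed in size. In female CD163KO and female WT mice no member differed by 1 or more in log2(scaled FPKM + 1) between PFF and MONO, where 22.5% and 18.4% of all genes did. As deposited, 2 did in the female WT pair, where 41.5% of all genes did. In male WT mice 5 of 10 did, where 67.5% of all genes did, so the members' share lay below that of all genes in a pair that holds the library that stood apart. As deposited, 5 did there too, where 72.1% of all genes did. Neutrophil genes also differed within the macrophage pairs. They summed to 48386 scaled FPKM in PFF and 186376 in MONO in female CD163KO, 58151 and 155317 in female WT, and 49040.5 and 123632 in male WT mice. In male CD163KO mice, whose MONO library was left out of the tests, PFF had 278126 and MONO 56205.5. The part of these cells in the member differences was not tested.

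In that male WT macrophage pair, Gbp5 was at 23.8 scaled FPKM in PFF and 0 in MONO, and Gbp3 at 29.9 and 11.7. Irf1 was at 4.93 in PFF and 24.5 in MONO, Irgm1 at 8.61 and 33.8, and Iigp1 at 2.13 and 9.32. Gbp2 was at 11.4 in PFF and 14.6 in MONO, and Gbp7 at 13.2 and 13.7. In this library Gbp3 and Gbp5 thus lay above the MONO library, Irf1, Irgm1 and Iigp1 below it, and Gbp2 and Gbp7 near it. In the female pairs Irf1 was at 32.1 in PFF and 35.8 in MONO for CD163KO and at 36.5 and 21.1 for WT.

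In microglia none of the 10 passed either, and 0.0% of 11740 genes did; 739 genes were under an unadjusted p of 0.05, none of them a member, and DESeq2 called 29 genes and no member. Irf1 was higher in PFF in 3 of 3 pairs on both scales, by 0.29 to 2.19 in log2(scaled FPKM + 1). Its scaled FPKM was 14.3 in PFF and 10.1 in MONO in female CD163KO, 22.3 and 18.2 in female WT, and 18.3 and 3.22 in male WT mice. The fitted log2 fold change was 1.2 (SE 0.54, 95% interval -0.02 to 2.43, adjusted p = 0.760), and without male WT MONO it was 0.36. It was 1.34 without the library labelled female CD163KO MONO, whose Y-linked counts went against that label and which also enters the female pairs and the sex test below.

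Ifngr1 and Ifngr2 were higher in PFF microglia in 3 of 3 pairs on scaled values but in 2 of 3 as deposited, with fitted values of 0.89 (SE 0.66) and 0.65 (SE 0.37) and adjusted p-values of 0.803 and 0.763. Single libraries moved these values, to 0.24 for Ifngr1 and 0.36 for Ifngr2 without male WT PFF, 0.32 and 0.22 without male WT MONO, 1.39 and 1.03 without the library labelled female CD163KO MONO, and 1.49 and 0.87 without female WT PFF. Scaled to the library total they were 0.19 and 0.093. The Ifngr1 differences were 0.01 to 2.07 and the largest was that of male WT, where PFF had 1516 scaled FPKM and MONO 359. Its FPKM as deposited in the same libraries were 699 and 636, and those of Ifngr2 were 46.1 and 71.9. Gbp5 was higher in PFF in 3 of 3 pairs, by 0.12 to 0.87, on 0 to 96 counts. Gbp7, Irgm1 and Iigp1 were lower in 3 of 3 pairs on both scales, by at most 0.62 on scaled values. In all 3 Iigp1 pairs the values were small, 0.38 against 1.13, 0.56 against 0.82 and 0.46 against 0.59 scaled FPKM. No member passed 1 in the female CD163KO and female WT pairs, where 16.1% and 13.5% of all genes did, and 5 of 8 members compared did in male WT mice, where 34.2% of genes did. Those 5 were Gbp2, Irf1, Ifngr1 and Ifngr2, higher in PFF, and Gbp3, lower. As deposited, 2 members passed 1 in the female WT pair, where 19.5% of all genes did, and 4 in the male WT pair, where 83.5% did, so the members' share in that pair lay above that of all genes on scaled values and below it as deposited.

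**Figure D5:**
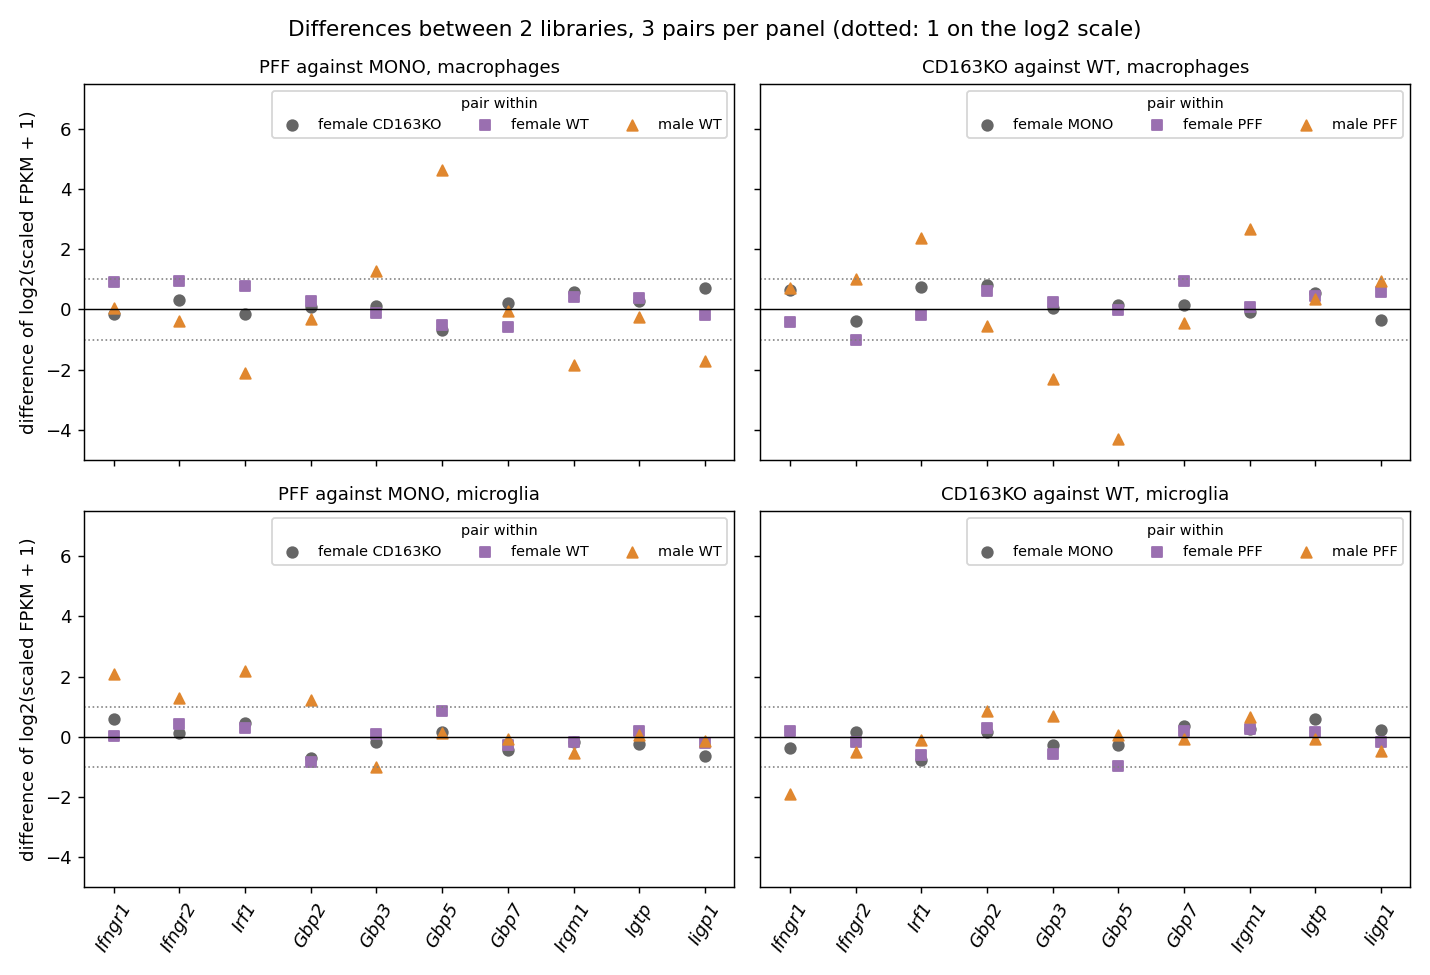
Difference of log2(scaled FPKM + 1) between 2 libraries that differ in treatment (left) or genotype (right), in macrophages (top) and microglia (bottom); each symbol is 1 pair of libraries, 3 per panel, and dotted lines mark differences of 1. Of the differences of 1 or more, all but that of Ifngr2 in female PFF macrophages came from male pairs. Every male pair shown holds a male WT PFF library, so sex and that library cannot be told apart here.

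The third comparison asked what loss of CD163 changed. In macrophages 1 gene, Cd163 itself, passed in the additive fit (0.00903% of 11070 genes) and none of the 10 members did. In that fit 76 genes, none of them a member, were under an unadjusted p of 0.05, and DESeq2 called 1 gene. The 76 are again a smaller share than the 0.05 given by chance, so the lack of member calls does not show a lack of effect. Igtp was higher in CD163KO in 3 of 3 pairs on scaled values, by 0.35 to 0.54, but in 2 of 3 as deposited, with 57.5 against 42.0 scaled FPKM in female PFF, 47.7 against 32.4 in female MONO and 44.4 against 34.6 in male PFF mice. Its fitted log2 fold change was 0.40 (SE 0.34, adjusted p = 1), within the spread between libraries. No member differed by 1 or more in female MONO mice, where 22.5% of genes did, and 1 did in female PFF mice, Ifngr2, with 46.1 in CD163KO and 93.5 in WT, where 21.5% of genes did. As deposited, Ifngr2 was at 31.3 and 35.6 FPKM in that pair and did not pass 1, while 4 members did, where 34.7% of all genes did. In male PFF mice 5 did (Irgm1, Irf1 and Ifngr2 higher in CD163KO, Gbp3 and Gbp5 lower, with Ifngr2 lower as deposited), where 68.2% of genes did, and 6 as deposited, where 82.3% did.

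In microglia, where Cd163 did not follow the genotype labels in males, none of the 10 and 0.0% of all genes passed between genotypes. In that fit 141 genes, none of them a member, were under an unadjusted p of 0.05, and DESeq2 called 3 genes and no member. The 141 are also a smaller share than 0.05 of the genes tested. Irgm1 was higher in CD163KO in 3 of 3 pairs on both scales, by 0.26 to 0.67 on scaled values, with 22.7 against 18.8 scaled FPKM in female MONO, 20.3 against 16.7 in female PFF and 29.5 against 18.1 in male PFF mice. The fitted value was 0.31 (SE 0.25, adjusted p = 1), and 0.33 without the MONO library labelled female that carries Y-linked counts (the 22.7). Irf1 was lower in 3 of 3 pairs on scaled values and in 2 of 3 as deposited, and Gbp2 was higher in 3 of 3 on both. No member differed by 1 or more in the female MONO and female PFF pairs, where 24.6% and 6.78% of genes did, and Ifngr1 alone did in male PFF mice, where 20.3% of genes did. As deposited, Ifngr1 was at 668 FPKM in CD163KO and 699 in WT in that male pair and did not pass 1, while 7 members did, where 85.3% of all genes did.

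Differences between these effects, and between the sexes, were tested next. No member and 0.0% of 12823 genes passed in the tests of population by treatment and of population by genotype, nor in those of treatment by genotype within macrophages (0.0%) and within microglia (0.0%), nor between males and females in macrophages (0.0%) or microglia (0.0%). In these 6 tests, in the order given, 120, 86, 46, 503, 150 and 193 genes were under an unadjusted p of 0.05, none of them a member, and DESeq2 called 34, 36, 11, 29, 16 and 17 genes, again no member. Each of the edgeR numbers was less than a share of 0.05 of the genes tested, so the lack of calls does not show a lack of effect. Without the microglial library whose Y-linked counts went against its label, 2 genes and no member passed between the sexes in microglia. Of the listed signalling, GBP, IRG, IFN-γ target and type I interferon genes none passed in any test within a population. For treatment by genotype in macrophages, leaving out female WT PFF brought Gbp5 and Irgm1 under the threshold, with a larger share of all genes than of the members. Male WT PFF, which stood apart, was then the only WT PFF library in that fit of 6 libraries. The calls rest on that library and cannot show a response shared by WT mice.

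Among themselves the 10 genes had correlations spread around 0. Over the 8 macrophage libraries the 45 pairwise Pearson correlations of log2(scaled FPKM + 1) had a median of 0.08 and ran from -0.92 to 0.90, and over the 8 microglial libraries a median of -0.01 from -0.88 to 0.66. These points share the scaling of their library, and no test was made. The mean log2 level of the 8 induced members was 3.51 to 3.90 in macrophage libraries and 2.31 to 2.86 in microglial ones, lowest in male WT MONO. The non-member genes whose pattern was most like that mean among 5533 genes in macrophages were the chemokine gene Ccl7 (r = 0.96 over 8 libraries), Clec4n (0.93), Lyrm4 (0.92), Bank1 (0.90) and the chemokine gene Ccl12 (0.88). In microglia, among 5992 genes, they were Lrrc45 (0.99), Zfp433 (0.97), Stt3b (0.97), Ankrd54 (0.96) and Cog8 (0.96). Ranking this many genes over 8 libraries selects for high values.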

How the data were processed

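Sorted microglia and macrophages were sequenced by the authors with Smart-seq2. The deposited tables give RSEM estimated counts and FPKM per transcript, and the submitters' processing notes name Bowtie2, RSEM, DESeq2 and mm10. Symbols came from RefSeq on GRCm38.p6, since the tables leave that column empty; 27632 of 27787 transcripts (99.4%) matched, and values were summed per gene. The deposited FPKM were used as levels, and scaled FPKM are FPKM divided by TMM factors. Estimated counts were rounded and tested with edgeR 4.0.16 (quasi-likelihood, TMM, genes with at least 10 counts in 3 or more libraries, Benjamini-Hochberg threshold 0.05), in R 4.3.3. Male CD163KO MONO was left out, as in the study. Pairwise differences used log2(scaled FPKM + 1), genes with at least 1 in either library and a threshold of 1. DESeq2 1.42.0, limma 3.58.1, other scalings, filters and sets of libraries were alternatives. The functions were run on simulated counts in which all libraries shared a mean profile, so the differences in composition seen here were not part of that check. Named were the 10 members, Ifng and Cd163 throughout, up to 3 called genes per list and direction, and the 5 most similar genes per population. Members and lists were chosen with earlier results of these data known. Certain items of the lists are not reported here. Floors cover counting error only.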

Additional observations from a re-analysis of the deposited data

Results flagged for a closer look

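In 20 groups of 8 libraries (10 genes in 2 populations, log2(scaled FPKM + 1)), 5 held a library whose gap to its nearest neighbour was a large share of the whole range by Dixon's criterion, where chance flags about 1 in 20 groups. That rate is for independent groups of normal values. These groups share libraries and their scaling, and Gbp5 was mostly near 0, so the flags are a description and not a test. In male WT PFF macrophages the share was 0.842 for Gbp5 (23.8 scaled FPKM, next 0.661), 0.712 for Irf1 (4.93, next 21.1) and 0.615 for Irgm1 (8.61, next 29.1). In female WT PFF microglia it was 0.754 for Gbp5 (1.22, next 0.217), and in male WT MONO microglia 0.567 for Irf1 (3.22, next 10.1). Gbp5 was the highest value and Irf1 and Irgm1 the lowest values of their groups.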

How the results depend on the processing

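Of 10 genes, 4 passed between microglia and macrophages. The number was 2 without the count filter, 2 in limma, 5 with all libraries and in DESeq2 (both adding Gbp3), 7 without the block for the combination, and 3 to 7 when each pair was left out. Of all genes 13.8% passed without the filter, 38.6% in limma, 17.8% with all libraries, 37.0% in DESeq2, 26.6% without the block and 14.5% to 38.6% when each pair was left out. Of all genes 2564 passed, against 6298 with scaling to the library total, 4747 in DESeq2, 4952 in limma and 1814 to 4925 without a pair. The library total turned the sign of Gbp3 (0.47), Gbp7 (0.54), Irgm1 (0.49), Igtp (0.67), Irf1 (0.26) and Ifngr1 (1.32). Ifngr1 was also positive with all libraries (0.091), without the filter (0.23), in limma (0.28) and without the block (0.25), and lay between -0.48 and 0.041 without a pair, as Ifngr2 lay between -0.23 and 0.17. Ifngr2 for PFF in macrophages lay between -0.085 and 0.87 without a library, and Ifngr1 and Ifngr2 for PFF in microglia between 0.24 and 1.49 and between 0.22 and 1.03. The cause was not tested.

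Within populations no member passed under any of these settings except treatment by genotype in macrophages (0 to 2 without a library, with 2 to 3507 genes). The highest of these numbers came without female WT PFF, where male WT PFF, which stood apart, was the only WT PFF macrophage library left. Gene counts differed from the 0 (or 1 for CD163KO in macrophages) as follows. With scaling to the library total they were 3 for population by genotype, 1 for PFF, 6 for sex and 5 for treatment by genotype in macrophages, and 2 for PFF, 5 for sex and 1 for treatment by genotype in microglia. In DESeq2 they were 34 for population by treatment, 36 for population by genotype, 5 for PFF, 16 for sex and 11 for treatment by genotype in macrophages, and 29 for PFF, 3 for CD163KO, 17 for sex and 29 for treatment by genotype in microglia. In limma they were 0 for CD163KO and 4 for treatment by genotype in macrophages and 1 for sex in microglia. Without the filter they were 1 for sex in macrophages and 11 for PFF, 19 for CD163KO, 6 for sex and 105 for treatment by genotype in microglia. With all libraries 1 gene passed for sex in macrophages, and with females only 0 passed for CD163KO in macrophages and 45 in microglia. Leaving out a library gave 0 to 1 genes for population by treatment, population by genotype and PFF in microglia, 0 to 5 for CD163KO in macrophages, 0 to 2 for sex and 0 to 147 for treatment by genotype in microglia.

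Member differences of 1 or more between single pairs numbered 5 for PFF in macrophages (2 at a threshold of 2) and 6 for CD163KO in macrophages (10 on FPKM as deposited). In microglia they numbered 5 for PFF (8 with a pseudocount of 0.1, 3 with 5, 2 at a threshold of 2) and 1 for CD163KO (8 as deposited, 3 with a pseudocount of 0.1, 0 at a threshold of 2). The fit of treatment by genotype without female CD163KO MONO could not be estimated in either population and was not run. Of the other single-gene values 191 kept their direction and side of the threshold, 9 passed newly and 9 no longer passed. With 1 library per combination, counts near 0, as for Gbp5 and Iigp1 in microglia, limit what could be seen.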
